A study of Mus musculus with 6 samples.

Results

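Collagen genes were taken as the gene symbols that begin with Col, a number, the letter a and a further number, and that occur in the count files of all 6 libraries. There were 42 such symbols among 21786. Of these, 41 name collagen chains, and Col4a3bp names the ceramide transfer protein, which is no collagen and is described apart. The counts come from polyadenylated RNA of whole mouse testes, the tunica albuginea removed. One group of 3 libraries came from Stra8 -/- males aged 1 year with grossly enlarged testes, and the other group of 3 from Stra8 +/+ (wild-type) males aged 2 to 4 months with normal testes, all on a C57BL/6 background. Stra8 is a germ cell gene required for entry into meiosis. Per the labels the enlarged testes hold mostly cells that look like type A spermatogonia. Genotype, age and enlargement of the testis change together in this design and cannot be told apart. In whole tissue, fewer cells of a type and less RNA per cell cannot be told apart either.

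Collagens are trimers of chains whose sequence repeats glycine at a fixed spacing, and each gene encodes one kind of chain. Fibrillar collagens (types I, II, III, V, XI, XXIV and XXVII) assemble into the fibres of connective tissue, whereas type IV collagens form the sheet-like network of basement membranes. In the testis a basement membrane lines the seminiferous tubule beneath the Sertoli cells and spermatogonia, and fibrillar collagen lies outside it in the tubule wall and the interstitium. The remaining classes coat fibrils, anchor or border basement membranes, form beaded filaments, or span the cell membrane. The comparison asked which collagen genes differed between the genotypes, and whether the fibrillar and the basement membrane class differed in the same way.

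Gene reads numbered 6733128 to 12425689 per library, and collagens took 0.0654% to 0.0921% of the reads of the 21786 shared symbols. Levels are given as CPM, the reads of a gene relative to the library total (counts per megaread) scaled by its TMM factor, a factor that makes the bulk of genes comparable between libraries. On this scale 3 reads, the limit that a count of 0 allows, amount to 0.201 to 0.550 CPM. Fold changes are log2 ratios, Stra8-deficient over wild type, each followed by an approximate SE (standard error), and a gene was called when its Benjamini-Hochberg adjusted p in edgeR's quasi-likelihood test was under 0.05. The Stra8-deficient libraries differed far more among themselves than the wild-type ones, with a biological coefficient of variation of 38.1% against 7.36%. Stra8 itself was at 21.2, 23.7 and 18.1 CPM in the Stra8-deficient and 18.7, 18.6 and 17.1 CPM in the wild-type libraries. The counts are per gene, not per exon, and the deleted part is not given in the sources used here, so this does not check the labels. Summed spermatid markers stood at 6.10 to 12.2 CPM in Stra8-deficient and 20749.9 to 24026 CPM in wild-type libraries, and summed markers of undifferentiated spermatogonia at 1142 to 1877 CPM and 80.5 to 88.2 CPM. Counts of the third Stra8-deficient library come from another gene list (23285 symbols against 22055).

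Of the 41 collagens 40 passed the filter on low counts. Col10a1, of hypertrophic cartilage, had 0 to 6 reads per Stra8-deficient library against 2 to 11 per wild-type library and was not tested. Among the 40, 11 rose, 21 fell and 8 were not called. Across all 15018 genes tested 75.8% were called, 39.0% higher and 36.7% lower, beside 27.5% and 52.5% of the collagens. The split turned with the scaling: it was 10 higher and 21 lower with RLE size factors, 12 and 17 with upper-quartile factors, 14 and 14 with library size alone, and 25 and 3 when libraries were scaled to Sertoli cell markers. With library size alone 50.3% of all genes were higher and 28.8% lower, beside 35% and 35% of the collagens. Scaled to Sertoli cell markers 69.7% of all genes were higher and 9.31% lower, beside 62.5% and 7.5% of the collagens, so the larger collagen share of lower calls was not seen there. The median log2 fold change of the 40 was -0.77, beside 0.11 for all genes tested, and these medians became 2.32 and 3.27 when scaled to Sertoli cell markers. The 3 Stra8-deficient libraries all lay above the 3 wild-type libraries for 13 collagens and all below for 22, where 40.7% and 39.4% of all tested genes did so (80.2% in either direction).

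**Figure D1:**
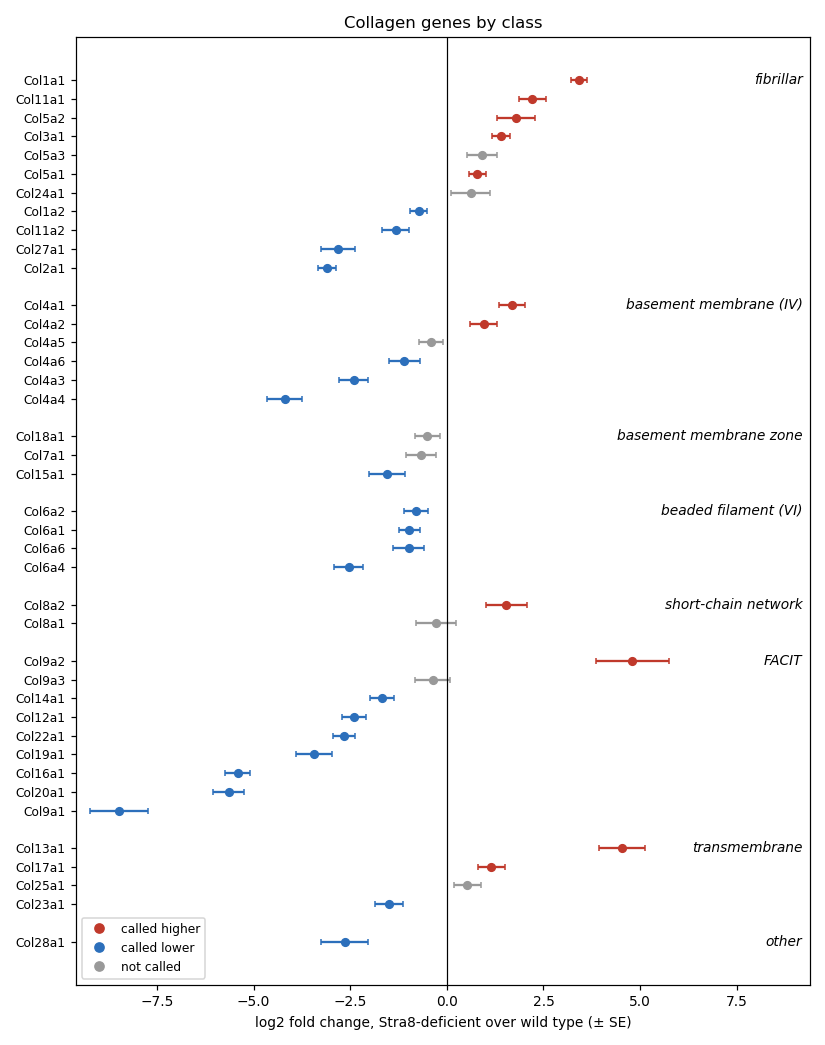
Log2 fold change (Stra8-deficient over wild type, horizontal axis) with its SE for the 40 tested collagens, grouped by class (vertical axis), red where called higher, blue where called lower and grey where not called (edgeR, TMM scaling). Values run from -8.49 for Col9a1, whose value the fit sets because it has 0 Stra8-deficient reads, to 4.80 for Col9a2, and the fibrillar and type IV classes each hold genes on both sides of 0.

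The make-up of the collagen reads changed, which does not depend on the scaling between libraries. Fibrillar collagens held 49.0 ± 12.1% of all collagen reads in Stra8-deficient testes and 21.9 ± 0.468% in wild type (SD, n = 3 each). Type IV collagens went from 14.0 ± 1.85% in wild type to 27.8 ± 8.21% (SD, n = 3 each). Both classes thus held more of the collagen reads in each Stra8-deficient library than in any wild-type library. Col1a1 alone took 23.8 ± 7.04% of collagen reads against 1.39 ± 0.0490% (SD, n = 3 each), much of the fibrillar gain. A larger share need not be a higher level. On the TMM scale type IV sums overlapped between the genotypes, at 269, 157 and 115 CPM against 125, 125 and 161 CPM for the wild-type libraries. As shares of all reads, without TMM scaling, they did not overlap and were higher in the Stra8-deficient libraries, narrowly so for the third. Fibrillar sums did not overlap, at 256, 336 and 313 CPM against 225, 204 and 215 CPM. FACIT collagens, which coat the surface of fibrils, held 46.9 ± 1.72% in wild type and 8.81 ± 2.57% in Stra8-deficient testes (SD, n = 3 each). In summed level, all collagens together came to 631 ± 93.2 CPM in Stra8-deficient and 981 ± 50.2 CPM in wild-type testes (SD, n = 3 each). The corresponding shares of all reads, without TMM scaling, were 0.0921%, 0.0769% and 0.0654% against 0.0823%, 0.0734% and 0.0818% and overlapped between the genotypes.

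**Figure D2:**
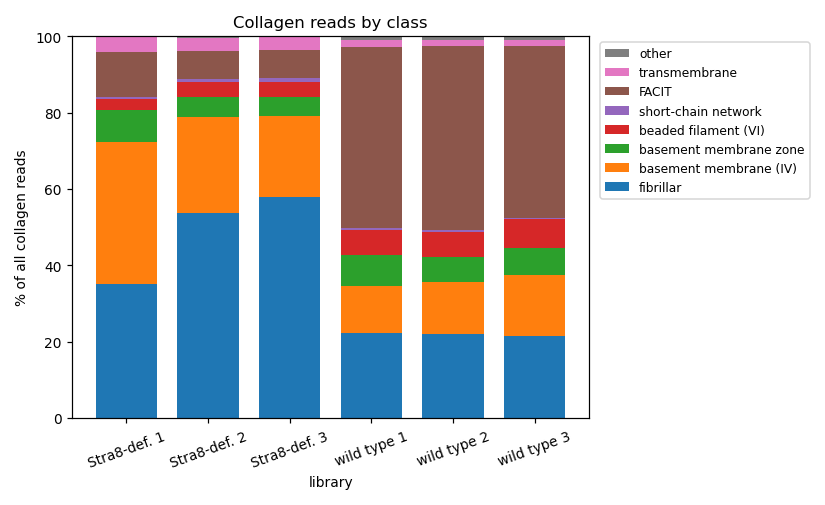
Percent of all collagen reads (vertical axis) held by each class, stacked, in each of the 6 libraries (horizontal axis). FACIT collagens make up the largest block of the 3 wild-type bars, and fibrillar with type IV collagens most of the 3 Stra8-deficient bars.

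Within the fibrillar class 5 of 11 genes rose (Col1a1, Col3a1, Col5a1, Col5a2 and Col11a1), 4 fell (Col1a2, Col2a1, Col11a2 and Col27a1) and 2 were not called (Col5a3 and Col24a1). All 11 were tested, and their median log2 fold change was 0.79. Their called shares, 45.5% higher and 36.4% lower, lay near the 39.0% and 36.7% of all genes. With library size alone the counts were 7 and 2, and with scaling to Sertoli cell markers 9 and 0. Col1a1 encodes the main chain of type I collagen, the most abundant fibre protein of the body. It was at 114, 169.9 and 154 CPM in the Stra8-deficient and at 13.6, 12.8 and 14.5 CPM in the wild-type libraries. The lowest Stra8-deficient value lay far above the highest wild-type value, with a log2 fold change of 3.42 ± 0.21 (edgeR, adjusted p = 8.00e-07), or 10.7-fold. It took 23.8 ± 7.04% of all collagen reads against 1.39 ± 0.0490% in wild type (SD, n = 3 each). Col3a1, the chain of the thin reticular fibres that often accompany type I, stood at 45.6, 43.2 and 64.0 CPM against 21.7, 17.5 and 18.5 CPM, again without overlap (1.40 ± 0.22; edgeR, adjusted p = 3.60e-04).

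Type V collagen, which sits inside type I fibrils and limits their width, rose in both of its main chains. Col5a1 was at 43.7, 63.4 and 41.8 CPM in Stra8-deficient and 29.4, 27.5 and 29.3 CPM in wild-type libraries (0.79 ± 0.21; edgeR, adjusted p = 0.00824). Col5a2 was at 3.21, 9.05 and 5.36 CPM and 1.09, 2.12 and 1.83 CPM (1.79 ± 0.49; edgeR, adjusted p = 0.00818). In each of these chains the genotypes did not overlap. Col5a3, a further type V chain, had a value of 0.90 ± 0.39 (edgeR, adjusted p = 0.0613) and was called higher with upper-quartile factors (1.17) and with library size alone (1.51).

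The chains of type XI collagen, which plays the same part in cartilage fibrils, went opposite ways. Col11a1 rose by 2.21 ± 0.35, from 2.03, 2.12 and 1.28 CPM to 9.23, 7.62 and 8.57 CPM (edgeR, adjusted p = 3.25e-04), while Col11a2 fell by 1.33 ± 0.34, from 4.06, 4.38 and 4.59 CPM to 1.61, 2.10 and 1.47 CPM (edgeR, adjusted p = 0.00615). Neither chain's libraries overlapped between the genotypes, and the call of Col11a2 was lost with library size alone (-0.72). Col2a1, the chain of the main cartilage fibre, was the most abundant fibrillar collagen of the wild-type libraries per length. Its levels were 86.0, 77.7 and 73.6 CPM in wild type and 7.93, 12.1 and 7.64 CPM in Stra8-deficient libraries (-3.10 ± 0.24; edgeR, adjusted p = 3.08e-06). Col27a1, a fibrillar chain best known from cartilage, fell by 2.82 ± 0.44, from 28.7, 24.6 and 28.1 CPM to 3.61, 6.38 and 1.61 CPM, and the value was -3.45 without the second Stra8-deficient library. Under scaling to Sertoli cell markers Col2a1 (0.32), Col11a2 (1.94) and Col27a1 (0.82) changed sign. Col24a1, of the same late-described branch, was at 1.41, 4.00 and 1.47 CPM against 1.41, 1.41 and 1.65 CPM; its value of 0.61 ± 0.51 rests on the second Stra8-deficient library and was -0.08 without it. The cartilage and bone list mixes genes of both tissues, so its counts do not describe cartilage genes alone. Of its 5 tested members 3 rose (Acan, Runx2 and Sp7) and 2 fell (Sox9 and Comp). Matn1, Matn3, Hapln1, Bglap and Ibsp were too low to test. Sox9, 1 of the 2 that fell, is also a Sertoli cell marker. Comp, a cartilage matrix gene, stood at 304, 344 and 348 CPM in wild type and 2.31, 1.05 and 0.804 CPM in Stra8-deficient libraries; whether these genes move with the cartilage collagens for a shared reason was not tested.

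The chains of type I collagen parted. Type I collagen is usually assembled from a pair of Col1a1 chains and a single Col1a2 chain. Col1a2 was at 23.8, 16.4 and 25.9 CPM in Stra8-deficient and 36.1, 32.9 and 40.7 CPM in wild-type libraries, a fall of 0.73 ± 0.23 on the log2 scale (edgeR, adjusted p = 0.0159). That call was lost with upper-quartile factors (-0.46), with library size alone (-0.11) and without the third wild-type library (-0.66), and it changed sign to 2.27 when scaled to Sertoli cell markers. The ratio of the chains within a library needs no scaling between libraries. Per kilobase of transcript, Col1a1 had 4.32, 9.35 and 5.37 reads for each Col1a2 read in the Stra8-deficient libraries against 0.340, 0.352 and 0.321 in wild type. The ratio was thus below 1 in all 3 wild-type testes and above 4 in all 3 Stra8-deficient testes, a mean log2 difference of 4.15, or 17.8-fold. Relative to Col3a1 the ratio of Col1a1 was 2.35, 3.69 and 2.26 against 0.587, 0.689 and 0.734, also without overlap. No test was made of these ratios, which were picked with their values in view.

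**Figure D3:**
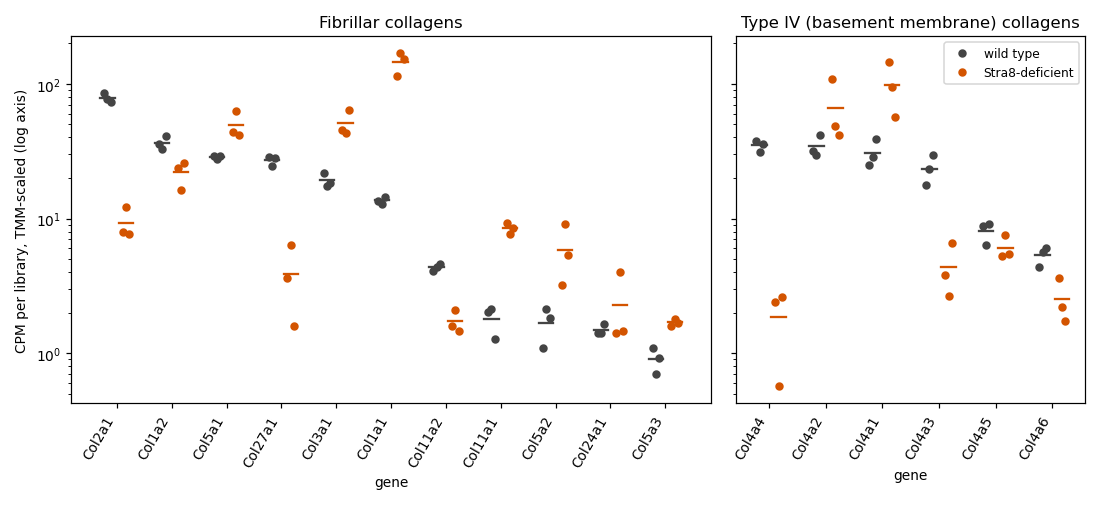
CPM per library on a log axis (vertical) for the 11 fibrillar and the 6 type IV collagens (horizontal, ordered by their wild-type mean, TMM scaling), wild type in grey and Stra8-deficient in orange, with bars at the means. Col1a1 lies at 13.6, 12.8 and 14.5 CPM in wild type and at 114, 169.9 and 154 CPM in the Stra8-deficient libraries, while Col1a2, Col2a1, Col27a1, Col4a3 and Col4a4 lie lower in the Stra8-deficient libraries.

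Type IV collagens split by gene pair. The 6 genes lie in 3 pairs, each pair side by side on a chromosome and transcribed away from each other. All 6 were tested, 2 rose, 3 fell and 1 was not called, with a median log2 fold change of -0.75. The called shares were 33.3% higher and 50.0% lower, beside 39.0% and 36.7% of all genes. Under RLE size factors 1 rose and 3 fell, with library size alone 2 and 2, and with scaling to Sertoli cell markers 4 and 0. Col4a1 and Col4a2, on chromosome 8, encode the chains found in nearly all basement membranes. Col4a1 was at 145, 95 and 56.3 CPM in Stra8-deficient and 25, 28.7 and 38.7 CPM in wild-type libraries (1.68 ± 0.34; edgeR, adjusted p = 0.00150). Col4a2 was at 108, 48.8 and 42.1 CPM against 31.7, 29.5 and 42.0 CPM (0.95 ± 0.36; edgeR, adjusted p = 0.0353), with the values of the second and the third Stra8-deficient library close to the top of the wild-type range. Without the first Stra8-deficient library, the highest for both genes, Col4a2 was not called (0.37), nor was it without the first (0.88) or the second wild-type library (0.83), or with RLE size factors (0.84).

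Col4a3 and Col4a4, on chromosome 1, encode chains of specialised basement membranes such as that of the kidney glomerulus. Both fell without overlap between the genotypes. Col4a3 was at 17.8, 23.3 and 29.5 CPM in wild type and 3.81, 2.67 and 6.63 CPM in Stra8-deficient libraries (-2.41 ± 0.38; edgeR, adjusted p = 3.18e-04). Col4a4 went from 37.8, 31.3 and 35.6 CPM to 2.41, 0.572 and 2.61 CPM (-4.20 ± 0.45; edgeR, adjusted p = 2.86e-05), the lowest fold change of the class. When scaled to Sertoli cell markers Col4a3 changed sign to 0.35 and Col4a4 was not called (-1.66). Col4a5 and Col4a6, on chromosome X, encode chains that some basement membranes hold together with or in place of the former. Col4a5 stood at 5.32, 7.53 and 5.43 CPM against 8.74, 6.35 and 9.17 CPM (-0.41 ± 0.31; edgeR, adjusted p = 0.257) and overlapped. Col4a6 stood at 3.61, 2.19 and 1.74 CPM against 4.37, 5.65 and 6.05 CPM (-1.10 ± 0.39; edgeR, adjusted p = 0.0287). The call of Col4a6 was lost without any 1 of the wild-type libraries (-1.24, -1.07 and -1.02 in order) and without the second (-1.05) or the third Stra8-deficient library (-0.89), as well as with upper-quartile factors (-0.82) and library size alone (-0.47). It changed sign to 2.04 when scaled to Sertoli cell markers.

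The stretches between the paired type IV genes are shown because the pairs differ in how closely their transcription starts lie and because Col4a1 with Col4a2, and Col4a3 with Col4a4, were called in the same direction. By GENCODE gene models on GRCm38, the starts of Col4a1 and Col4a2 overlap by 22 bases, those of Col4a3 and Col4a4 are separated by 71 bases, and those of Col4a5 and Col4a6 by 1308 bases. The lines give the whole stretch between the starts of Col4a4 and Col4a3 (GRCm38.p6, chr1:82586850-82586920, minus strand, reading towards Col4a4), the 250 bases before Col4a6 (chrX:141474077-141474326, minus strand) and the 216 bases before Col4a5 (chrX:141475169-141475384, plus strand), from RefSeq promoter windows and clear of any annotated exon. Capitals mark the GC box GGGCGG or the CCAAT box CCAAT, each searched on both strands.
Col4a4 and Col4a3: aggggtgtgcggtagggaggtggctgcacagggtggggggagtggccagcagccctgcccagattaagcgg
Col4a6: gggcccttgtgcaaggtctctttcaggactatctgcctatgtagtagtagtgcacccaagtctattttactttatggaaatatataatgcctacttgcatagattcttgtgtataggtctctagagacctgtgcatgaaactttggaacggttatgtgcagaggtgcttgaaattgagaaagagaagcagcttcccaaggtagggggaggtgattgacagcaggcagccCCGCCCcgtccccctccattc
Col4a5: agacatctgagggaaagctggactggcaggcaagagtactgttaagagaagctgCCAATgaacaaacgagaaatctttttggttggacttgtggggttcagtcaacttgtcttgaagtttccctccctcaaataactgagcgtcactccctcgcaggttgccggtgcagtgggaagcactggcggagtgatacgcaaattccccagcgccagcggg
The Col4a4 and Col4a3 stretch is 69.0% G and C and holds none of these letters. Col4a6 has 1 GC box and Col4a5 has 1 CCAAT box, and the TATA box TATAAA occurs in none of the 3. In the 250 bases before a start, the GC box was present in 21 of 36 promoters of 33 collagen genes in the RefSeq table (58.3%) and in 32.7% of all 32851 promoters. The CCAAT box was present in 13 of the 36 (36.1%) and in 33.8% of all, and the TATA box in 5 of the 36 (13.9%) and in 12.4% of all. A match describes letters and not a bound site.

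Neighbouring collagen genes are given beside all neighbours. Of 7 pairs of collagen genes that are neighbours among the protein-coding genes of the files, 6 had both members called in the same direction (85.7%), as had 31.8% of 12267 neighbouring pairs of tested genes overall; this was not tested. Besides Col4a1 with Col4a2, Col3a1 and Col5a2 were both higher. Besides Col4a3 with Col4a4, the pairs Col9a1 with Col19a1, Col6a1 with Col6a2 and Col6a4 with Col6a6 were lower, which scaling to Sertoli cell markers turned for Col4a3 and the 4 type VI genes. The exception was Col4a5, not called, with Col4a6. The count is not firm. Col4a2, Col6a2 and Col6a6 all lost their calls without the first Stra8-deficient library, and again without the first wild-type library. Their pairs were then no longer called alike. Library size alone took away the calls of Col6a1, Col6a2 and Col6a6. The share over all neighbouring pairs was not counted in these settings. In the pairs Col4a1 with Col4a2 and Col4a3 with Col4a4 the members did not change by the same factor. For Col6a1 with Col6a2 and Col4a5 with Col4a6 the ratio overlapped between the genotypes. Within the libraries, the ratio of Col4a1 to Col4a2 per kilobase was 1.31, 1.90 and 1.31 in Stra8-deficient and 0.769, 0.947 and 0.898 in wild type, and that of Col4a3 to Col4a4 was 1.87, 5.51 and 3.00 against 0.557, 0.878 and 0.981. Neither ratio overlapped between the genotypes. Strand handling of the counts is not stated, so reads in the overlap of Col4a1 and Col4a2 cannot be assigned to either gene with certainty.

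Set against each other, the fibrillar and the type IV class kept a ratio that overlapped between the genotypes. Summed reads of the 11 fibrillar genes were 0.951, 2.14 and 2.73 times those of the 6 type IV genes in the Stra8-deficient libraries against 1.80, 1.63 and 1.33 times in wild type. The Stra8-deficient values lay on both sides of the wild-type values, and the mean log2 ratio differed by 0.17. Counted per kilobase of transcript the ratios were 1.02, 2.26 and 3.01 and 2.33, 2.10 and 1.69, with a difference of -0.09. Leaving the most abundant gene out of each class, Col1a1 and Col4a1, gave 1.15, 2.69 and 2.73 against 2.11, 1.99 and 1.64, a difference of 0.10. Leaving out Col1a1 alone gave 0.527, 1.06 and 1.39 against 1.69, 1.53 and 1.24, a difference of -0.68. The chains that lead both classes in the Stra8-deficient libraries gave another picture: Col1a1 with Col3a1 had 0.629, 1.48 and 2.21 times the reads of Col4a1 with Col4a2 in Stra8-deficient and 0.623, 0.522 and 0.409 times in wild-type libraries. The first Stra8-deficient library, at 0.63, lay next to the first wild-type library, at 0.62, so this shift rests on the second and the third. The first Stra8-deficient library had the highest type IV and the lowest Col1a1 levels of its group. Without it, the difference of the mean log2 ratio of the classes was 0.62, and without the third it was -0.14. The ratios sum over chosen genes and carry no test.

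**Figure D4:**
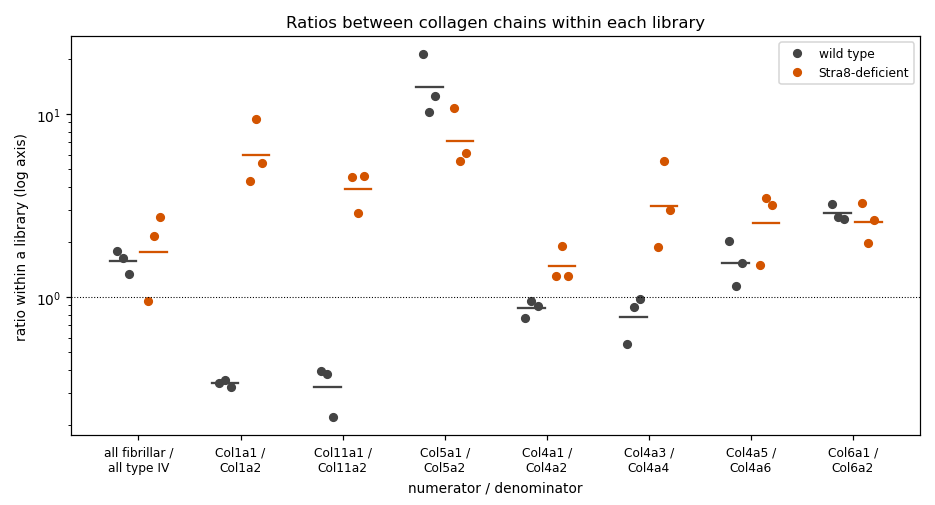
Ratio within each library on a log axis (vertical) of all fibrillar to all type IV reads and of 7 pairs of chains per kilobase of transcript (horizontal), wild type in grey and Stra8-deficient in orange, with bars at the geometric means and a dotted line at 1. The class ratio overlaps between the genotypes (0.95 to 2.73 against 1.33 to 1.80), whereas the ratio of Col1a1 to Col1a2 lies between 4.32 and 9.35 in Stra8-deficient and between 0.32 and 0.35 in wild-type libraries.

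The order of collagens by level per length differed between the genotypes. In the Stra8-deficient testes Col1a1 came first at 24.6 ± 4.86 CPM per kilobase, followed by Col4a1 at 14.9 ± 6.73, Col4a2 at 10.3 ± 5.66 and Col3a1 at 9.15 ± 2.05 (SD, n = 3). Col4a1, Col4a2 and Col3a1 lay within each other's spread. In the wild-type testes the order was Col16a1 at 26.3 ± 0.977 CPM per kilobase, Col22a1 at 21.5 ± 1.51, Col20a1 at 15.9 ± 0.404 and Col2a1 at 15.5 ± 1.25 (SD, n = 3). Col20a1 and Col2a1 did not differ beyond their spread. None of these 4 was among the first 8 in the Stra8-deficient testes.

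FACIT collagens, fibril-associated chains with an interrupted helix, fell in 7 of 9 genes (3 when scaled to Sertoli cell markers), with 1 higher and 1 not called and a median log2 fold change of -2.67. Of all genes 39.0% were higher and 36.7% lower. With scaling to Sertoli cell markers 2 rose and 3 fell and the median was 0.47, beside 69.7% higher and 9.31% lower of all genes. Col16a1, found near fibrils and basement membranes of many tissues, fell from 138, 131 and 141 CPM to 5.02, 2.57 and 2.14 CPM (-5.42 ± 0.32; edgeR, adjusted p = 6.28e-07). Col20a1 went from 81.0, 77.2 and 80.3 CPM to 2.51, 1.71 and 0.670 CPM (-5.65 ± 0.40; edgeR, adjusted p = 1.85e-06). Col22a1, known from tissue junctions such as those of muscle and tendon, went from 204, 183 and 179.6 CPM to 44.0, 23.4 and 22.1 CPM (-2.67 ± 0.28; edgeR, adjusted p = 2.44e-05). Each wild-type library exceeded every Stra8-deficient library for these 3 genes, and the fitted factors were 42.7, 50.2 and 6.35. Together with Col12a1 (-2.40 ± 0.32) and Col14a1 (-1.68 ± 0.30), which bind type I fibrils, and Col19a1 (-3.44 ± 0.47), they made up 6 of the 7. When scaled to Sertoli cell markers Col12a1 (0.58), Col14a1 (1.67) and Col22a1 (0.47) changed sign and Col19a1 was not called (-0.58).

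The 3 chains of type IX collagen, a FACIT of cartilage fibrils, did 3 different things. Col9a1 had 0 reads in the Stra8-deficient libraries against 24, 41 and 29 reads in wild type, at least 58.5-fold lower when 3 reads are assumed over the Stra8-deficient group (edgeR, adjusted p = 3.88e-05). Col9a2 had 31, 11 and 21 reads against 1, 0 and 0, a ratio of 33.7 (95% counting interval 5.84 to 1353; edgeR, adjusted p = 0.00131). Its fitted value of 4.80 was 4.20 without the first Stra8-deficient and 7.15 without the first wild-type library. Col9a3 stood at 22.3, 7.91 and 6.50 CPM against 18.9, 12.6 and 15.6 CPM and overlapped (-0.36 ± 0.46; edgeR, adjusted p = 0.486). Its first Stra8-deficient library was above all wild-type libraries and the other two were below them, and without the first the value was -1.15 and called (edgeR, adjusted p = 0.00771).

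Type VI collagen forms beaded filaments around cells, and all 4 of its genes counted in every library fell, though all 4 values were positive (1.03 to 2.38) when scaled to Sertoli cell markers. Col6a1 was at 10.4, 8.48 and 12.4 CPM in Stra8-deficient and 22.8, 15.8 and 22.9 CPM in wild-type libraries (-0.97 ± 0.26; edgeR, adjusted p = 0.00794). Col6a2, its partner on chromosome 10, was at 3.81, 5.14 and 5.63 CPM and 8.43, 6.92 and 10.3 CPM (-0.80 ± 0.32; edgeR, adjusted p = 0.0424), Col6a4 at -2.54 ± 0.37 and Col6a6 at -0.99 ± 0.40. The ratio of Col6a1 to Col6a2 per kilobase was 3.28, 1.97 and 2.64 against 3.24, 2.74 and 2.67, and these ranges overlapped. Col6a2 and Col6a6 lost their calls without any 1 of the wild-type libraries, without the first Stra8-deficient library and in several other settings, Col6a6 also without the third Stra8-deficient library. With library size alone 1 of the 4 was called, and with scaling to Sertoli cell markers 3 were called higher. Of all genes 36.7% were lower with TMM and 28.8% with library size alone, and 69.7% were higher when scaled to Sertoli cell markers. Col6a3 and Col6a5 are counted in a single library and are not in these numbers.

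With TMM scaling, collagens of the basement membrane zone did not rise with Col4a1 and Col4a2. Of 3 tested 0 were called higher and 1 lower, beside 39.0% and 36.7% of all genes. Scaled to Sertoli cell markers 2 were called higher and 0 lower, beside 69.7% and 9.31% of all genes. Col18a1, whose end yields endostatin, was at 41.3, 25.8 and 16.2 CPM against 46.8, 32.5 and 38.7 CPM (-0.51 ± 0.33; edgeR, adjusted p = 0.187) and was called lower without the first Stra8-deficient library (-0.93; edgeR, adjusted p = 0.0188). Col15a1, its relative at the outer face of basement membranes, fell from 32.3, 25.8 and 27.1 CPM to 18.4, 4.48 and 6.50 CPM (-1.55 ± 0.47; edgeR, adjusted p = 0.0140), and the value was -2.40 without the first Stra8-deficient library. Library size alone took away the call of Col15a1 (-0.92) and turned the sign of Col18a1 (0.12), and both were above 0 when scaled to Sertoli cell markers (1.37 and 2.76). Col7a1, of anchoring fibrils, was not called (-0.67 ± 0.38; edgeR, adjusted p = 0.140). The 2 called higher when scaled to Sertoli cell markers were Col18a1 and Col7a1 (2.48).

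Of the 4 transmembrane collagens 2 rose, 1 fell and 1 was not called, beside 39.0% higher and 36.7% lower of all genes. Col13a1, a cell adhesion collagen known from the neuromuscular junction, had 106, 69 and 92 reads in Stra8-deficient and 1, 1 and 4 in wild-type libraries, and its ratio was 23.8 (95% counting interval 10.8 to 65.5; edgeR, adjusted p = 1.13e-04). The fitted log2 value of 4.53 became 5.58 without the third wild-type library, which held 4 of the 6 wild-type reads. Col17a1, a component of hemidesmosomes, rose from 5.15, 2.82 and 4.40 CPM to 11.5, 8.67 and 7.30 CPM (1.15 ± 0.35; edgeR, adjusted p = 0.0144), a call lost without the second wild-type library (0.92). Col23a1 fell by 1.5 ± 0.35, which turned to 1.83 when scaled to Sertoli cell markers, and Col25a1 was at 0.53 ± 0.35 (edgeR, adjusted p = 0.192). The libraries of Col25a1 did not overlap, and it was called higher with GC and length offsets (0.84), with library size alone (1.14) and when scaled to Sertoli cell markers (3.56). In the short-chain network class Col8a2 rose (1.54 ± 0.53; edgeR, adjusted p = 0.0246) and Col8a1 was not called (-0.27 ± 0.52). The call of Col8a2 was lost without any 1 of the wild-type libraries or the first Stra8-deficient library. Col28a1 fell from 10.3, 9.04 and 10.3 CPM to 0.602, 3.43 and 0.737 CPM (-2.64 ± 0.61), and was at -3.88 without the second Stra8-deficient library and 1.14 when scaled to Sertoli cell markers.

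Among symbols outside the collagen chains, Col4a3bp, which matches the naming rule, fell from 136, 151 and 147 CPM to 37.4, 41.1 and 36.4 CPM (-1.91 ± 0.16; edgeR, adjusted p = 5.15e-06). Emid2, an older symbol of Col26a1 that does not match the rule, was at 11.4, 15.2 and 13.6 CPM in wild type and 3.31, 2.00 and 2.55 CPM in Stra8-deficient libraries (-2.35 ± 0.32; edgeR, adjusted p = 1.28e-04). Scaling to Sertoli cell markers turned both to positive values (1.36 and 0.65).

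Enzymes and chaperones that modify and fold collagen chains mostly rose. Of 19 listed genes 15 were tested, 10 rose, 1 fell and 4 were not called. Their median log2 fold change was 1.12, beside 0.11 for all genes. Higher calls numbered 10 with TMM, 10 with RLE, 11 with upper-quartile factors, 13 with library size alone and 14 scaled to Sertoli cell markers. In the same order, the shares of all genes called higher were 39.0%, 36.8%, 44.2%, 50.3% and 69.7%. Plod2, a lysyl hydroxylase that prepares fibrillar collagen for cross-linking, was at 142, 148 and 130.1 CPM in Stra8-deficient and 11.9, 11.3 and 16.1 CPM in wild-type libraries (3.42 ± 0.20; edgeR, adjusted p = 6.24e-07). P4hb, a subunit of prolyl hydroxylase and a disulfide isomerase of all secretory cells, rose by 2.05 ± 0.20, and Ppib, a prolyl isomerase of the same compartment, by 2.29 ± 0.31. Serpinh1, the collagen-specific chaperone HSP47, was at 28.4, 48.1 and 23.4 CPM against 17, 13.4 and 16.5 CPM (1.09 ± 0.29; edgeR, adjusted p = 0.00791). The 1 lower member was Fkbp14, a prolyl isomerase (-1.83 ± 0.30).

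Genes that cut and cross-link collagen outside the cell split as follows. Of 13 tested members 4 rose, 1 fell and 8 were not called, with a median of 0.36. Among all genes 39.0% were higher and 36.7% lower. Without the third Stra8-deficient library Pcolce, an enhancer of procollagen cleavage, was also called lower (-1.57), which makes 2. Adamts14, a protease that removes the amino-terminal propeptide of fibrillar procollagen, rose from 2.50, 1.84 and 2.20 CPM to 24.4, 27.7 and 17.2 CPM (3.40 ± 0.31; edgeR, adjusted p = 1.01e-05). Its relatives Adamts2 (-0.53 ± 0.36) and Adamts3 (-0.26 ± 0.34) and the carboxy-terminal protease Bmp1 (-0.22 ± 0.44) were not called. Pxdn, the peroxidasin that cross-links type IV collagen, was at 65.8, 53.0 and 39.0 CPM against 8.28, 6.92 and 12.7 CPM (2.51 ± 0.30; edgeR, adjusted p = 5.74e-05). Among lysyl oxidases, which cross-link fibres, Loxl1 fell by 3.10 ± 0.32, Loxl2, which also acts on type IV collagen, rose by 2.01 ± 0.41, and Lox was at 0.65 ± 0.42 (edgeR, adjusted p = 0.189). When scaled to Sertoli cell markers 12 of these genes were called higher and none lower, and Loxl1 was not called (-0.28).

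Receptors for collagen went both ways, as did all genes tested, of which 39.0% were higher and 36.7% lower. Of 9 tested, 4 rose and 4 fell and 1 was not called, with a median of -0.61. The 4 higher calls became 2 or 3 whichever library was left out, because Ddr1 or Lair1 or both lost the call. The 4 that fell were integrin alpha chains that bind collagen: Itga1 (-3.48 ± 0.32), Itga2 (-2.34 ± 0.66), Itga10 (-2.46 ± 0.40) and Itga11 (-3.55 ± 0.30). Itga1 stood at 53.2, 55.6 and 53.9 CPM in wild type and 2.71, 6.95 and 4.89 CPM in Stra8-deficient libraries (edgeR, adjusted p = 1.09e-05), without overlap. Itgb1, the beta chain they share with many other integrins, rose by 2.28 ± 0.19. Mrc2, an endocytic receptor for collagen, rose by 2.46 ± 0.34, Ddr1, a collagen-binding kinase, by 1.09 ± 0.43, and Lair1, an inhibitory receptor of leukocytes, by 1.59 ± 0.60. Ddr1 overlapped between the genotypes, at 152, 70.3 and 37.6 CPM against 44.0, 41.9 and 36.0 CPM (edgeR, adjusted p = 0.0465), and kept its call only without the third Stra8-deficient library. Lair1 was at 2.91, 3.53 and 12.7 CPM against 1.87, 2.12 and 2.38 CPM, highest in the third Stra8-deficient library, without which its value was 0.59 and not called, and its call was also lost without any 1 of the wild-type libraries. Ddr2, a related kinase, was at -0.61 ± 0.39 and was called lower without the third Stra8-deficient library (-1.02). Scaling to Sertoli cell markers left no receptor called lower, turned Itga10 to 0.22, and left Itga1 (-0.05) and Itga11 (-0.49) uncalled.

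Among proteoglycans and fibril regulators 5 of 13 tested rose, 2 fell and 6 were not called, with a median of 0.32. The shares over all genes were 39.0% higher and 36.7% lower. The lower calls numbered 1 to 4 over the left-out libraries. Prelp, the other lower gene beside Tnxb, was not called without the first (-1.42) or the third wild-type library (-1.56), Ogn (-3.27) and Sparc (-1.74) were called lower without the third Stra8-deficient library, and Thbs1 (-0.93) without the second. Bgn, the fibril-binding proteoglycan biglycan, was at 68.9, 46.3 and 199 CPM in Stra8-deficient and 29.4, 29.9 and 36.7 CPM in wild-type libraries (1.72 ± 0.50; edgeR, adjusted p = 0.0126). Thbs2, a matricellular protein that affects fibril shape, rose by 2.19 ± 0.54, and Podn, the proteoglycan podocan, by 2.67 ± 0.80. The value of Podn was 1.44 without the second Stra8-deficient, 3.32 without the second wild-type and 2.41, not called, without the third wild-type library. Tnxb, the matrix protein tenascin-X, was at -3.35 ± 0.75 and at -5.33 without the third Stra8-deficient library. Sparc, a collagen-binding matricellular protein, varied from 96.9 to 635 CPM among the Stra8-deficient libraries and was not called (-0.62 ± 0.60; edgeR, adjusted p = 0.369). With scaling to Sertoli cell markers 9 members of this list were called higher and 0 lower, and Tnxb was not called (-1.41).

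Partners of type IV collagen in the basement membrane also went both ways. Of 8 tested, 4 rose, 3 fell and 1 was not called, with a median of 0.92, beside 39.0% higher and 36.7% lower of all genes. Lamb1, a laminin beta chain, was at 1127, 977 and 784 CPM in Stra8-deficient and 30.1, 32.9 and 33.2 CPM in wild-type libraries (4.91 ± 0.22; edgeR, adjusted p = 1.23e-07), while Lamb2, another beta chain, fell by 1.47 ± 0.17. Hspg2, the proteoglycan perlecan, rose by 1.84 ± 0.30 and Nid2, which links laminin to type IV collagen, by 1.27 ± 0.34. Its relative Nid1 fell by 2.17 ± 0.20, from 70.3, 62.3 and 61.3 CPM to 12.6, 16.9 and 13.5 CPM, and Papln, an extracellular matrix gene, by 5.14 ± 0.32. The first Stra8-deficient library was the highest of all 6 for Col4a1, Col4a2, Hspg2, Nid2 and Lamb1. With scaling to Sertoli cell markers 5 of these partners were called higher and none lower, Nid1 turned to 1.16 and Papln was not called (-1.92).

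**Figure D5:**
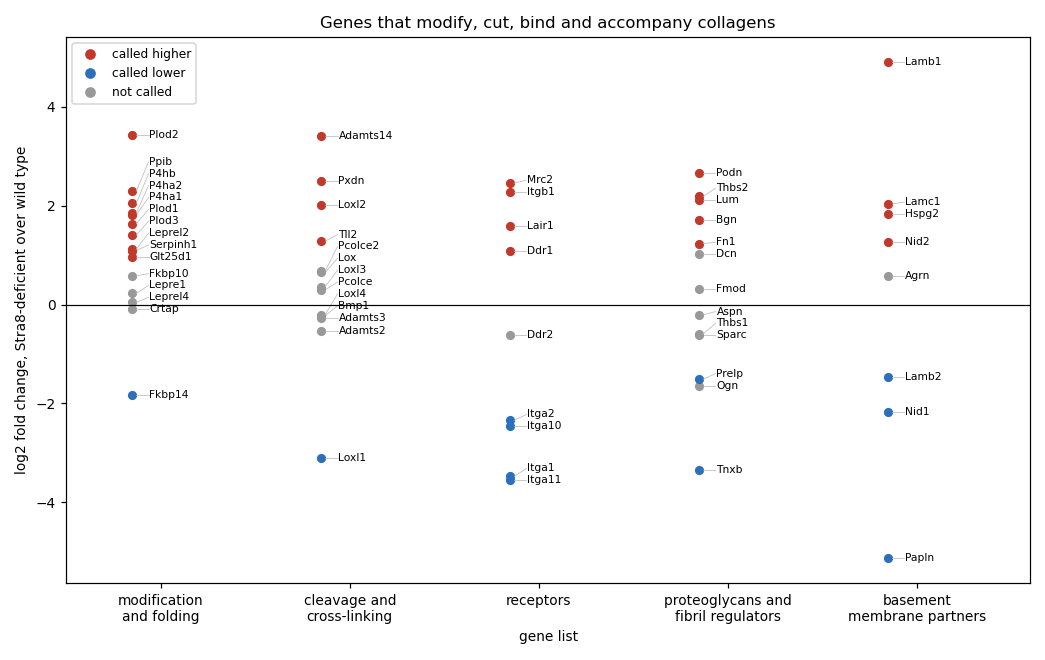
Log2 fold change (Stra8-deficient over wild type, vertical axis) of the tested members of 5 gene lists around collagen (horizontal axis), red where called higher, blue where called lower and grey where not called (edgeR). Modifying and folding genes lie mostly above 0, with 10 called higher and 1 lower, and of the collagen receptors 4 were called higher and 4 lower.

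Markers of the somatic cell types of the testis are given beside all genes tested, of which 39.0% were called higher and 36.7% lower. Of 13 tested Sertoli cell markers 11 fell and 2 were not called, and their sum was 116 to 847 CPM in Stra8-deficient and 2116 to 2326 CPM in wild-type libraries. Peritubular myoid markers, of the contractile cells of the tubule wall, fell in 3 of 8, rose in 1 (Des, at 3.79 ± 0.31), and summed to 157 to 397 CPM against 382 to 429 CPM. Actg2, of the same list, stood at 1.91, 0.667 and 12.1 CPM against 237, 255 and 275 CPM. In the list of fibroblasts and interstitial stroma 3 of 9 rose, 2 fell and 4 were not called (sum 103 to 155 CPM against 74.4 to 83.6 CPM). Pdgfra, a receptor of stromal cells, was at 24.6, 37.2 and 53.6 CPM and 30.8, 25.6 and 30.4 CPM (0.41 ± 0.28; edgeR, adjusted p = 0.209). Endothelial markers rose in 5 of 9 and fell in none (117 to 257 CPM against 76.1 to 95.6 CPM), and macrophage markers rose in 8 of 10 and fell in 1 (482 to 1704 CPM against 414 to 474 CPM). These splits turned with the scaling. Of all genes 50.3% were higher and 28.8% lower with library size alone. Scaled to Sertoli cell markers these shares were 69.7% and 9.31%. With library size alone 3 peritubular myoid markers were higher and 2 lower, 4 fibroblast markers higher and 0 lower, and 1 Sertoli cell marker higher and 9 lower. When scaled to Sertoli cell markers the counts were 5 and 1 for peritubular myoid, 7 and 0 for fibroblast, 8 and 0 for endothelial and 4 and 0 for Leydig cell markers, against 0 and 0 for the last with TMM. No marker of these lists was at 0 in all 3 libraries of a genotype. Leydig cell markers summed to 339.6, 18.4 and 2799 CPM in the Stra8-deficient libraries in order, against 800.1 to 1302 CPM in wild type. The part of these cell types in the collagen results was not tested.

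In the authors' deposited table, all 41 collagens are listed, 11 with a corrected p under 0.05 and a positive log2 ratio and 21 with a negative one. Across the 19119 genes of the authors' deposited table, 66.0% have a corrected p under 0.05, 33.7% higher and 32.4% lower. Each of the 40 collagens tested here has the same call in the authors' deposited table, and Col10a1 has a corrected p of 0.0659 there. These calls rest on the same libraries.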

How the data were processed

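Polyadenylated RNA of 6 testes was sequenced, 3 Stra8 -/- and 3 Stra8 +/+, each library read as 1 sample of its group by the labels. The deposited count files hold whole-number read counts per gene symbol; per the submitters' processing notes TopHat, HTSeq and edgeR were used with mm9 (versions and strand: not given in the sources used here). Log2 ratios and p-values of the authors, from their deposited table, were used only where that table is named. Here the counts of 21786 shared symbols (2848 of them 0 in all libraries) were fitted with edgeR 4.0.16 in R 4.3.3: low-count filter, TMM factors, quasi-likelihood test over both groups, Benjamini-Hochberg adjustment over 15018 genes, threshold 0.05. Counter lines that name no gene (20.9% to 34.5% of a library's reads) stayed out. The fit was tested first on simulated counts with the same spread in all libraries and few changed genes. That setting does not cover the unequal spread of the genotypes or the large share of genes called here. Standard errors are approximate, from the fold change and its test statistic.

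Transcript lengths, chromosomes and neighbours come from GENCODE gene models on GRCm38 (19724 symbols matched by name and 1719 by an older symbol), and promoters from RefSeq; coordinates are GRCm38, not the build of the counts. Reads of overlapping genes may be split between them. The collagen genes and the gene lists were chosen with earlier results of these data known. All collagens were named, and from each list of partner genes at least the 3 called genes with the largest change whose mean log2 CPM was 0 or more; further genes, and the ratios between genes, were picked after their values were seen. Alternatives were RLE, upper-quartile and library-size scaling, scaling to Sertoli cell markers, no filter, GC and length offsets, a replicate block, DESeq2 1.42.0 and leaving out each library. P-values rest on the spread between 3 and 3 testes. Intervals and limits for a count of 0 cover counting error only.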

Additional observations from a re-analysis of the deposited data

Results flagged for a closer look

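Reads of 2 more type VI collagens appeared in a single library. In the third Stra8-deficient library, whose file lists 23285 symbols against 22055 in the others, Col6a3 had 194 reads (13 CPM) and Col6a5 had 50 reads (3.35 CPM). These symbols are not counted in the other 5 libraries, so no genotype comparison of them was made. They were picked out because they are signals outside the symbols compared in the report. Col6a3 encodes a large chain of the type VI filament, so the statement that all 4 genes of the class fell leaves this chain out.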

How the results depend on the processing

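Under 14 alternatives 11 of the 40 tested collagens kept direction and call (Col1a1, Col3a1, Col5a1, Col5a2, Col11a1, Col4a1, Col13a1, Col16a1, Col20a1, Col9a1 and Col9a2), and 22 changed sign under at least 1, of which 17 only when scaled to Sertoli cell markers. That scaling sets the summed reads of the fallen Sertoli list equal in every library. Single Sertoli cell markers still differed under it, with 2 higher, 3 lower and a median of -1.04. The sum varied from 116 to 847 CPM among the Stra8-deficient libraries on the TMM scale, so this scaling also shifts them against each other. Over all genes it gave 10464 higher and 1398 lower (median 3.27). For collagens it gave 25 and 3 (median 2.32), for fibrillar genes 9 and 0 (median 4.20) and for type IV 4 and 0 (median 2.50). It turned Col11a2 to 1.94, Col12a1 to 0.58, Col14a1 to 1.67, Col15a1 to 1.37, Col18a1 to 2.76, Col1a2 to 2.27, Col22a1 to 0.47, Col23a1 to 1.83, Col27a1 to 0.82, Col28a1 to 1.14, Col2a1 to 0.32, Col4a3 to 0.35, Col4a5 to 2.95, Col4a6 to 2.04, Col6a1 to 2.07, Col6a2 to 2.38, Col6a4 to 1.03, Col6a6 to 2.16, Col7a1 to 2.48, Col8a1 to 3.03 and Col9a3 to 2.73, and Col4a3bp to 1.36, Emid2 to 0.65, Itga10 to 0.22 and Nid1 to 1.16. Library size alone turned Col18a1 to 0.12, Col4a5 to 0.21, Col8a1 to 0.34 and Col9a3 to 0.26, and left 2 fibrillar genes lower; its medians were 0.73 over all genes, -0.15 for collagens, 1.40 for fibrillar and -0.13 for type IV. Upper-quartile factors turned Col8a1 to 0.00048, with medians of 0.38, -0.50 for collagens and -0.48 for type IV. RLE size factors gave medians of -0.0088 over all genes and -0.89 for collagens and 1 higher type IV gene, DESeq2 -0.0082 and -0.89, and GC and length offsets 0.46, -0.59 for collagens and -0.48 for type IV. Where a median or count moved, the cause was not tested.

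Leaving out each library in turn gave 5268 to 5939 higher and 5089 to 5831 lower genes over all (median 0.040 to 0.139). For collagens the ranges were 8 to 11 higher, 17 to 21 lower and a median of -0.90 to -0.66. For fibrillar collagens they were 5 higher throughout, 3 to 4 lower and 0.53 to 0.89. For type IV they were 1 to 2 higher, 2 to 3 lower and -0.91 to -0.61, and the log2 difference of the fibrillar to type IV ratio was -0.14 to 0.62. Without the first Stra8-deficient library Col8a1 was at 0.10, and without the second Col24a1 was at -0.084 (its range over the left-out libraries was -0.084 to 0.86), and Col8a1 ranged from -0.61 to 0.10. Of 32 called collagens 7 lost the call without some library (Col4a2, Col4a6, Col6a2, Col6a6, Col8a2, Col17a1 and Col1a2). Replicate numbers did not pair the samples: same-numbered libraries correlated in their deviations at 0.058, 0.080 and -0.040. With a replicate block 11 collagens were higher and 19 lower, Col6a2 (-0.81) and Col6a6 (-1.01) losing their calls, and the median of all genes was 0.049. Low counts limit Col9a1, Col9a2, Col13a1, Col8a2 and Col6a6, whose fitted values depend on few reads, and kept Col10a1 out of the test. Stra8-deficient reads were also few for Col4a4 (24, 6 and 39) and Col19a1 (5, 3 and 3).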

Other observations

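Further ratios between chains within a library, computed per kilobase of transcript and chosen after their values were seen, were not tested. Col4a1, of ubiquitous basement membranes, had 92.1, 254 and 33.0 reads for each read of Col4a4, of specialised ones, in the Stra8-deficient libraries against 1, 1.40 and 1.66 in wild type. Col2a1 stood to Col11a2, its partner in cartilage fibrils, at 5.85, 6.84 and 6.14 against 25.1, 21.0 and 19.0, without overlap. The ratio of Col8a1 to Col8a2, short-chain collagens of endothelial and corneal sheets, was 0.200, 2.54 and 1.30 against 2.26, 4.66 and 3.82, and that of Col4a5 to Col4a6 was 1.5, 3.49 and 3.17 against 2.03, 1.14 and 1.54; both overlapped. The 11 collagens called higher had a median transcript length of 5930.0 bases and a median GC content of 58.0%, and the 21 called lower 5658 bases and 54.0%.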
